A study of Mus musculus with 4 samples.

Results

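The contacts described here join DNA on opposite sides of a domain boundary on mouse chromosome 1, in distal limb buds of E11.5 embryos. The boundary lies after base 75610000 in build mm9. By the published description of these alleles it separates a gene-rich stretch from the domain of Epha4, the gene of an ephrin receptor tyrosine kinase. A contact belonged to the set when its left bin of 10 kb lay between 74830001 and 75610000 (the left side, 780 kb), its right bin lay between 75610001 and 76390000 (the right side, 780 kb), and the bins were at least 20 kb apart. This gave 6083 of the 500500 pairs of bins in the maps, and 6082 of them were at least 20 kb apart on every allele and are used throughout. The position and the edges were chosen with earlier results of these maps known, so the shortage of contacts across the position in WT is given as a description.

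The assay was capture Hi-C, in which crosslinked DNA ends that lie close together are ligated and probes enrich the ligation products of a chosen region. The groups were embryos homozygous for InvF, for DelB or for DelBs, and wild-type (WT) embryos, all at E11.5, with 1 library for each of the 4 genotypes. The labels do not say how the alleles were made or whether embryos were pooled. In the maps, InvF turned 1070 kb around, from 74830001 to 75900000, DelB lacked 1670 kb from 76390001 to 78060000, and DelBs lacked 1470 kb from 76390001 to 77860000. With 1 library per genotype there is no spread between embryos, no test between genotypes and no p-value, and every 95% interval below covers counting error alone.

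In mammalian chromosomes, neighbouring domains meet at boundaries that are commonly occupied by the DNA-binding protein CTCF, where loop extrusion by cohesin stalls. A boundary is seen as a shortage of contacts between its flanks relative to contacts of the same length inside a domain. The Epha4 domain is known as a gene-poor domain with limb enhancers, beside a gene-rich stretch that includes Wnt6, a gene of a secreted signalling protein, and Ihh, the gene of a hedgehog signal. In the RefSeq table of the GRCm38 assembly, the stretch between Wnt6 and Slc4a3, an anion exchanger gene, holds 31 protein-coding genes, and 0 lie between Slc4a3 and Epha4. Gene positions in mm9 were not used here, so no gene is placed on either side of the boundary by coordinate.

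The 3 rearrangements treat these contacts differently. In InvF the right end of the inversion, 75900000, divides the right side into a left part of 290 kb and a right part of 490 kb. Left-part contacts (2261 pairs) were turned together with the boundary, so that order and distance were kept and the boundary came to lie after position 75120000 on the inverted allele, 780 kb from the right junction. Right-part contacts (3821 pairs) no longer had the boundary between them, because the left side now adjoined the right part directly, in reverse order. In DelB and DelBs all of these pairs kept their order and distance, and the deletions began at the right edge of the set.

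The libraries held 6073471 counts in InvF, 5543587 in DelB, 5832748 in DelBs and 5155274 in WT. Of these, pairs of the set held 74250 counts in InvF, 63471 in DelB, 69553 in DelBs and 37521 in WT. That is 1.22% of the InvF library, 1.14% of DelB, 1.19% of DelBs and 0.728% of WT. In InvF 35736 of these counts lay in the left part. The other 38514 lay in the right part, whose pairs did not have the boundary between them on the inverted allele. A single 10 kb pair had a median of 6 counts in InvF, 6 in DelB, 7 in DelBs and 4 in WT, and 190, 152 and 131 pairs in the mutants and 477 pairs in WT had no count, so results are given for sums of pairs. The libraries were scaled on pairs that no rearrangement touched, which divided InvF by 1.24, DelB by 1.43 and DelBs by 1.50, whereas total counts would give 1.18, 1.08 and 1.13. Each sum was also set against its expected count, the mean of untouched pairs at the same distance on the allele in the same library. Untouched pairs lay outside every rearranged interval and on the same side of each, so the left side and the left part were left out. Pairs within the right part stayed in, for the scaling and for the expected level, so their own levels and ratios are not independent of either. An observed over expected level of 1 is the mean of these pairs and not the level without a boundary. WT pairs that do not cross the boundary stood at 1.17 within the left side and 1.26 within the left part. They stood at 1.22 within the right part. The observed over expected level does not correct for uneven coverage. All ratios to WT share the same WT library.

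Contacts of the set stood well below the expected level in all 4 genotypes. The observed over expected level was 0.580 in InvF (0.576 to 0.585), 0.572 in DelB (0.567 to 0.576) and 0.600 in DelBs (0.595 to 0.604), against 0.500 in WT (0.495 to 0.505). In InvF this level pools left-part pairs, which kept the boundary between them (0.664), with right-part pairs, which did not (0.519). The authors' balanced maps, in which every bin of a library has about the same sum, gave lower levels of 0.465 in InvF, 0.437 in DelB, 0.475 in DelBs and 0.379 in WT. The share of pairs of the set with more counts than expected was 7.68% in InvF, 11.0% in DelB, 12.6% in DelBs and 8.29% in WT. In InvF it was 9.77% in the left part and 6.44% in the right part. The same share was not computed for pairs outside the set, so how widely the shortage was spread is not shown.

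**Figure D1:**
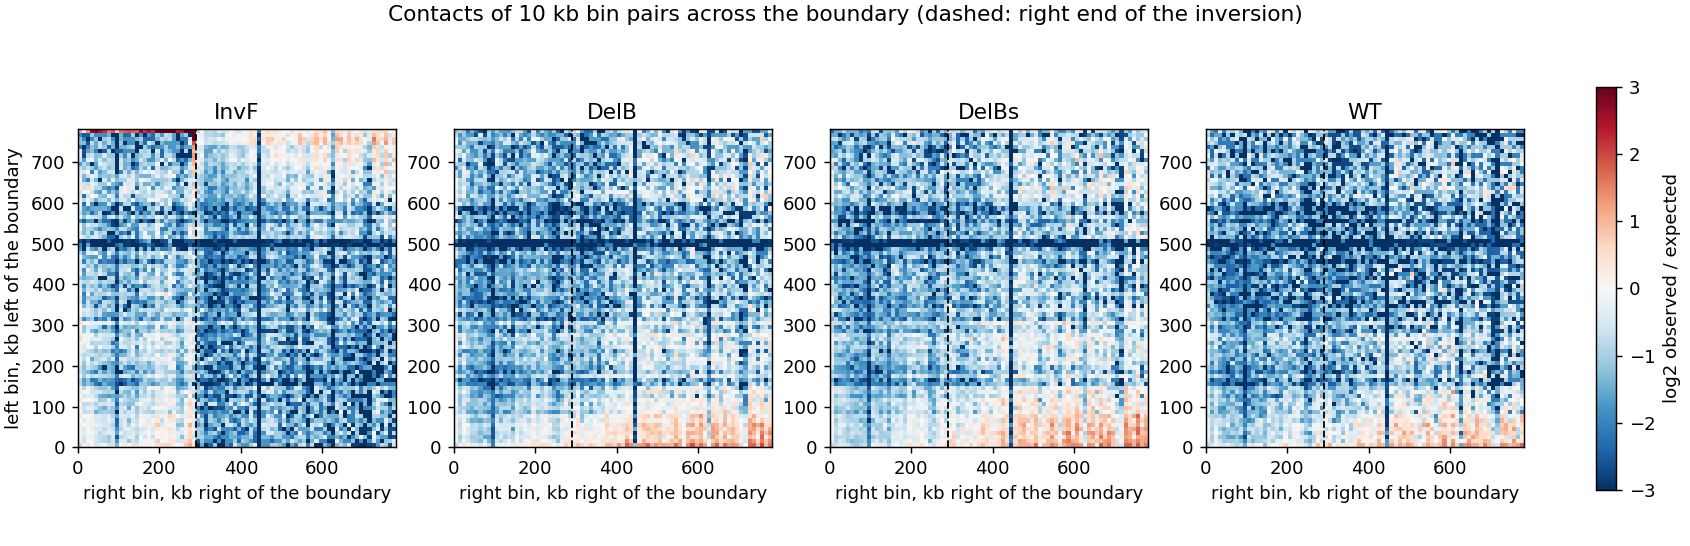
Observed over expected counts (log2, colour) of every 10 kb bin pair of the set in InvF, DelB, DelBs and WT. The horizontal axis is the distance of the right bin from the boundary in mm9. The vertical axis is that of the left bin (both in kb). Pairs without a count are drawn at the lowest colour, and the dashed line is the right end of the inversion. In InvF, pairs to the right of this line did not have the boundary between them. The red corner at the lower right of DelB, DelBs and WT is missing in InvF, where contacts above the expected level lie at the upper right instead; the dark red line at the top of InvF is the bin that holds a breakpoint.

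The shortage in WT was deeper for the left part than for the right part. Left-part contacts were at 0.443 of the expected level in WT (0.436 to 0.449) and right-part contacts at 0.578 (0.569 to 0.586). Within the left part the WT level was 0.774 at 20 to 50 kb, 0.635 at 50 to 100 kb, 0.512 at 100 to 200 kb, 0.474 at 200 to 400 kb, 0.326 at 400 to 800 kb and 0.360 at 800 kb and over. The first of these classes holds 9 pairs with 1260 counts, and the last holds 378 pairs with 1098 counts. The right part has no pairs under 200 kb in WT. Its level there was 0.960 at 200 to 400 kb (0.905 to 1.02), which includes 1, then 0.736 at 400 to 800 kb and 0.414 at 800 kb and over. The class of 200 to 400 kb holds 55 pairs with 1120 counts, and the balanced map gave a level of 0.658 for it. Against same-side pairs of the left side, left part and right part it was at 0.828, so the value near 1 depends on the raw expected level.

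Boundary strength was taken as the log2 of the mean count of same-side pairs of the left side, left part and right part over the mean count of crossing pairs, at the same distance. Over left-part pairs at 20 to 50, 50 to 100, 100 to 200 and 200 to 400 kb the strength was 0.35, 0.61, 0.93 and 0.82 in InvF. In DelB the same classes had strengths of 0.45, 0.80, 1.26 and 1.32. In DelBs they had strengths of 0.75, 1.01, 1.26 and 1.29. In WT they had strengths of 0.61, 0.96, 1.28 and 1.31. From 100 kb upwards the intervals of DelB and DelBs overlapped that of WT, and the values of InvF were below those of WT in all 4 classes.

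The place with the fewest contacts across it was sought from 100 kb left to 100 kb right of the boundary, among positions whose windows spanned no rearrangement. With 200 kb taken to each side, the lowest position was the boundary itself in all 4 genotypes, at an observed over expected level of 0.700 in InvF, 0.579 in DelB, 0.554 in DelBs and 0.522 in WT. With 290 kb to each side it was again the boundary itself in DelB, DelBs and WT. In InvF the boundary is the last position that this window allows, so positions to its right could not be compared there. With 100 kb to each side the lowest position was 30 kb further right, at 75640000, in all 4 genotypes, where the level was 0.719 in InvF, 0.621 in DelB, 0.552 in DelBs and 0.557 in WT. At 50, 100 and 200 kb to each side, the lowest position lay at the boundary or up to 40 kb to its right in every genotype, also on the inverted allele. Along the whole map with 200 kb windows, the boundary had rank 187 among 883 positions in InvF, rank 55 among 755 in DelB, rank 60 among 775 in DelBs and rank 26 among 961 in WT, where rank 1 has the fewest contacts. The numbers of positions differ because windows that span a rearrangement were left out.

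**Figure D2:**
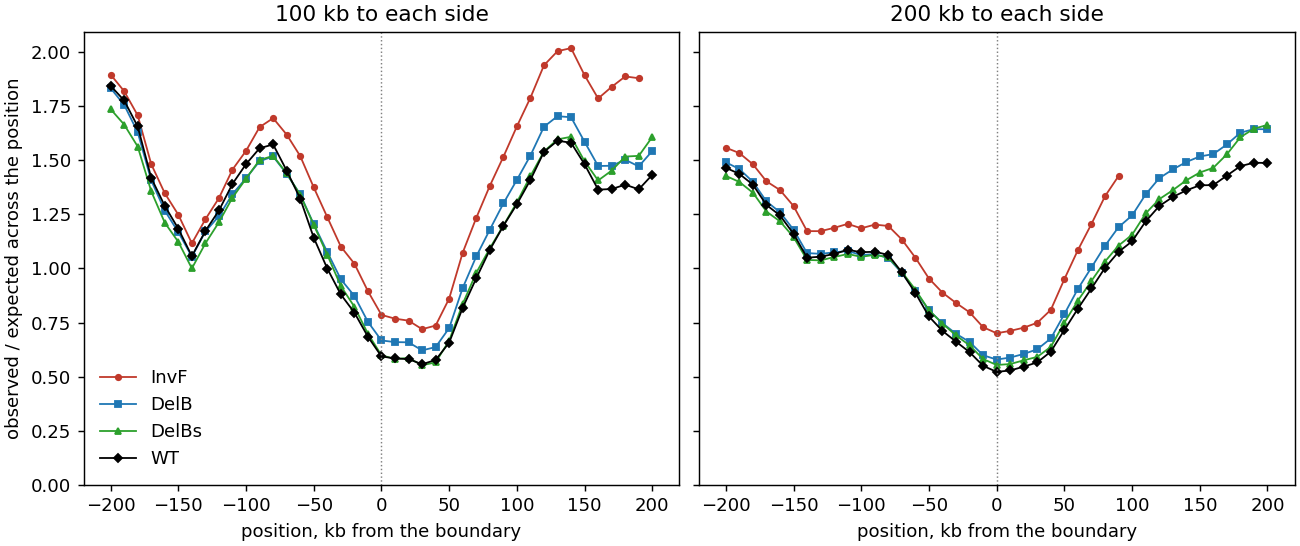
Observed over expected count of all contacts that cross a position (vertical axis) against its distance from the boundary in kb, for windows of 100 kb and 200 kb to each side, in InvF, DelB, DelBs and WT. All 4 curves have their lowest points between the boundary and 40 kb to its right, and the InvF curve lies above the others there.

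The inversion asks whether left-part contacts, which travelled with the boundary, kept their level. These contacts were more frequent in InvF than in WT. The scaled count was 28735 in InvF against 18983 in WT, a ratio of 1.51 (1.49 to 1.54), and the observed over expected level was 0.664 in InvF (0.658 to 0.671) against 0.443 in WT. Part of this difference sat in the 2 bins that hold the breakpoints. The first left-side bin, from 74830001 to 74840000, had 2034 counts with the left part in InvF, 128 in DelB, 157 in DelBs and 107 in WT. Its observed over expected level was 7.03 in InvF, 0.369 in DelB, 0.436 in DelBs and 0.472 in WT, while the next bin to the right was at 0.608 in InvF, 0.351 in DelB, 0.327 in DelBs and 0.318 in WT. The pair formed by both breakpoint bins had 501 counts in InvF and 4 in each of DelB, DelBs and WT. A break inside a bin leaves DNA on both sides of it, so these bins cannot be assigned to a single place on the inverted allele.

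Without the 2 breakpoint bins, which were left out after the values had been seen, the ratio of left-part contacts in InvF to WT was 1.42 (1.39 to 1.44) and the level in InvF was 0.623 against 0.443 in WT. By distance, from 20 to 50 kb up to 400 to 800 kb, the ratio was 1.22, 1.33, 1.35, 1.44 and 1.55. At 800 kb and over it was 1.26 (1.16 to 1.37) without these bins and 2.89 with them. The level at these distances was 0.440 in InvF against 0.359 in WT without these bins, and 1.01 in InvF against 0.360 in WT with them. The excess in InvF was present in all 6 distance classes, and the rise of the ratio at the longest distance was not seen without the breakpoint bins.

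**Figure D3:**
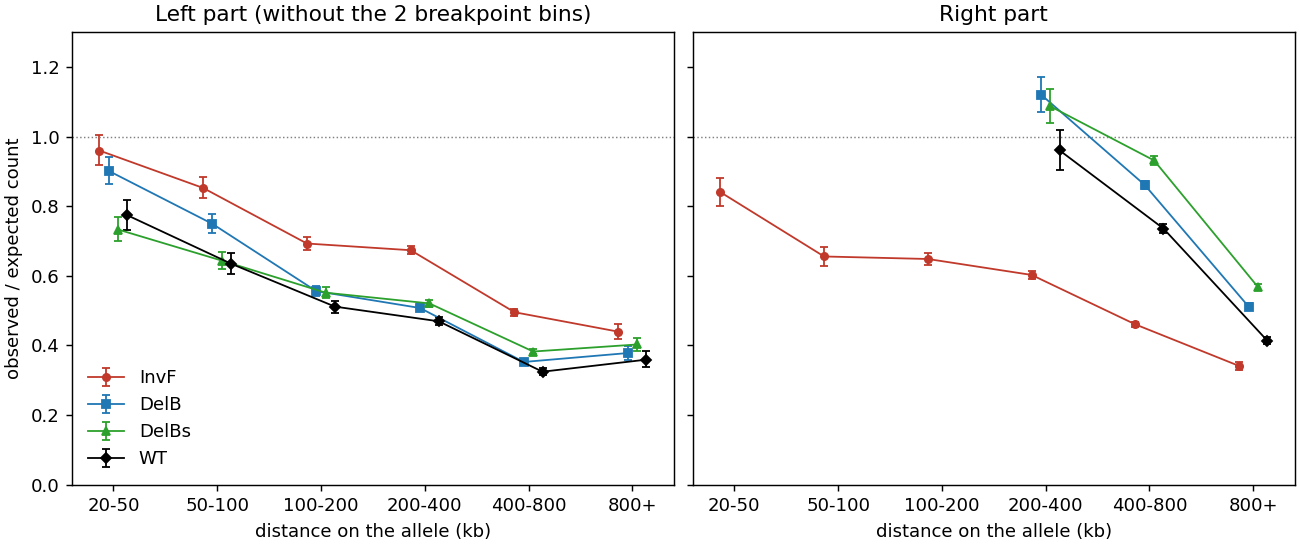
Observed over expected count of pairs of the set (vertical axis) by distance class on the allele in kb, in InvF, DelB, DelBs and WT. A value of 1 is the mean of untouched pairs at the same distance. The left part is drawn without the 2 breakpoint bins and the right part with all its pairs. Bars are 95% counting intervals. In the left part InvF is above the other 3 genotypes in every class, and in the right part, where InvF alone has pairs under 200 kb, InvF is below the other 3 at matched distances.

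Some contacts that do not cross the boundary were also more frequent in InvF. Contacts within the left part, which was turned as a whole, had 1.29 times their WT count in InvF (1.28 to 1.31), whereas contacts within the left side had 0.955 times (0.948 to 0.961) and contacts within the right part, outside the inversion, 1.05 times. The depth of the shortage therefore depended on which contacts it was set against. For pairs up to 280 kb apart, crossing contacts relative to contacts within the left side were at 0.658 in InvF (0.648 to 0.668), 0.529 in DelB, 0.494 in DelBs and 0.476 in WT (0.467 to 0.486). Relative to contacts within the left part they were at 0.396 in InvF (0.390 to 0.402), 0.400 in DelB, 0.412 in DelBs and 0.399 in WT (0.391 to 0.407). Set against the left part, the interval of InvF overlapped that of WT. Summed over the map outside the DelB deletion, the bins of the left part had 1.15 times their WT counts in InvF, against 0.984 times for the bins of the left side. The part of this coverage in the excess was not tested. The balanced maps, which equalise bin sums, gave an InvF to WT ratio of 1.66 for left-part contacts.

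The left part was also parted from the right part by the inversion. Contacts between the left part and the right part do not cross the boundary in WT, where they lie 20 to 770 kb apart. On the inverted allele the whole left side and the boundary lay between them, at 790 to 1550 kb. Their observed over expected level was 0.389 in InvF (0.377 to 0.401), 1.70 in DelB, 1.75 in DelBs and 1.43 in WT, each at its own distances. For comparison, WT pairs across the boundary at 800 kb and over were at 0.360 in the left part and 0.414 in the right part.

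Within the left part, blocks of 50 kb were compared to see where the change lay. All 96 blocks had a WT level whose interval was below 1, with a median of 0.366. The 3 blocks of highest WT level all had the 50 kb beside the boundary as their left block. The 50 kb from 75560001 to 75610000 and the far end of the left part, 75860001 to 75900000, had a level of 1.16 in InvF, 0.919 in DelB, 0.871 in DelBs and 0.833 in WT. The same 50 kb with 75810001 to 75860000 had 1.11 in InvF, 0.911 in DelB, 0.869 in DelBs and 0.801 in WT. The lowest WT block joined 75110001 to 75160000 with 75660001 to 75710000 and had 129 counts in InvF, 80 in DelB, 94 in DelBs and 51 in WT, which are levels of 0.300 in InvF, 0.157 in DelB, 0.176 in DelBs and 0.150 in WT. This left block holds the bin from 75110001 to 75120000, whose WT coverage was 16.6% of that of the median bin.

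In InvF the interval of the ratio to WT was above 1 in 82 of the 96 left-part blocks and below 1 in 0, with a median ratio of 1.52. The 3 blocks with the highest ratios all joined the first left-side block, 74830001 to 74860000, to the end of the left part and hold breakpoint bins. Their ratios were 23.5, 6.11 and 5.02. The lowest ratio, 0.833 (0.610 to 1.14), joined 74860001 to 74910000 with 75710001 to 75760000, with 87 counts in InvF and 84 in WT, and its interval includes 1. In DelB 20 of the 96 blocks were above WT and 0 below, and in DelBs 30 were above and 1 was below. The share over blocks elsewhere on the map was not computed, so these counts are a description. The block with the highest ratio in both deletions joined 75060001 to 75110000 with 75860001 to 75900000, with 83 counts in DelB, 86 in DelBs and 31 in WT. DelB had 1.87 times the WT contacts there (1.22 to 2.92), and DelBs 1.85 times (1.22 to 2.89). It also stood at 3.16 times WT in InvF (122 counts), and all of these ratios share the low WT count.

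For right-part contacts the inversion changed both the distance and the boundary between the bins. Summed over all 3821 pairs the scaled count was 30969 in InvF against 18538 in WT, a ratio of 1.67 (1.64 to 1.70), and 1.57 without the breakpoint bins. This sum mixes opposite changes. The 2596 pairs that the inversion brought closer, to a median distance of 510 kb in InvF against 1050 kb in WT, had 4.06 times their WT contacts (3.96 to 4.17). The 1176 pairs that it moved apart, to a median of 905 kb in InvF against 655 kb in WT, had 0.280 times their WT contacts (0.270 to 0.290). In DelB the same pairs were at 1.31 and 1.23 times WT, and in DelBs at 1.47 and 1.31 times WT. The ratio in InvF fell across the classes of distance change, but it was already below 1 for pairs brought slightly closer. Pairs brought 1000 to 1200 kb closer were at 23.6 times WT, and those brought 200 to 400 kb closer at 1.55 times. Pairs brought up to 200 kb closer were at 0.920 times (0.866 to 0.977), against 1.31 times in DelB and 1.45 times in DelBs. Pairs at unchanged distance or moved under 200 kb apart were at 0.566 times in InvF, and those moved 400 to 600 kb apart at 0.135 times. The part of distance in these ratios was not tested.

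**Figure D4:**
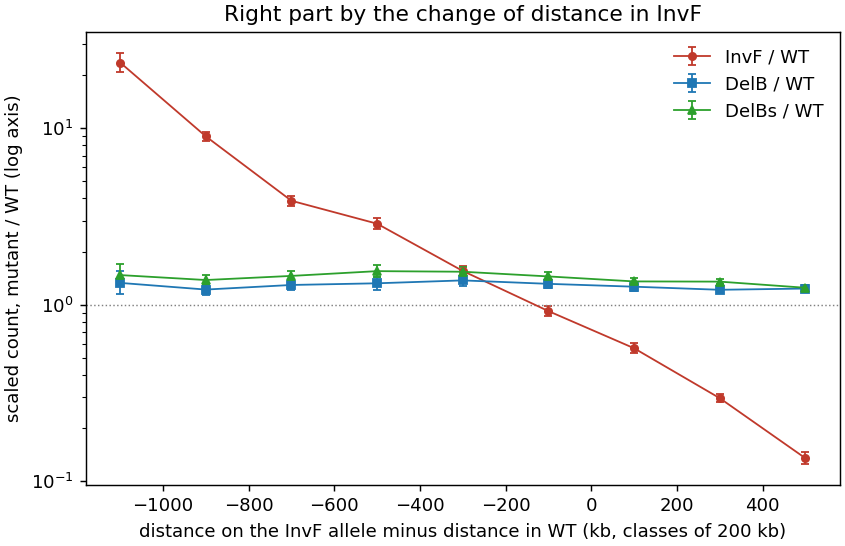
Scaled count of right-part pairs in a mutant over that in WT (vertical log axis) against the change of distance on the InvF allele (in kb, classes of 200 kb, negative where InvF brought the bins closer), for InvF, DelB and DelBs; bars are 95% counting intervals. The InvF ratio lies between 23.6 at the left end and 0.135 at the right end, and the DelB and DelBs ratios lie between 1.21 and 1.55 in every class.

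The exchange of partners was seen along the left side. In InvF the first 100 kb of the left side, now next to the right part, held 46.9% of all contacts of the left side with the right part, and the last 100 kb held 4.19%. In DelB the first 100 kb held 5.57% and the last 39.3%, and in DelBs the first held 5.73% and the last 37.4%. In WT the first 100 kb held 5.58% and the last 100 kb, next to the boundary, held 40.3%. The contacts of the first 100 kb with the right part were 14.0 times those of WT in InvF, 1.26 times in DelB and 1.41 times in DelBs. Those of the last 100 kb were 0.174 times WT in InvF (0.165 to 0.184), 1.23 times in DelB and 1.27 times in DelBs.

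The loss at the boundary end was also seen relative to the expected level at the distance on the allele. The 50 kb next to the boundary, 75560001 to 75610000, had 757 counts with the right part in InvF, 7994 in DelB, 8433 in DelBs and 4519 in WT. Its observed over expected level was 0.341 in InvF, 1.55 in DelB, 1.56 in DelBs and 1.30 in WT. In the balanced maps the levels were 0.247 in InvF, 1.08 in DelB, 1.15 in DelBs and 0.916 in WT, so the WT level was above 1 in raw counts alone, while InvF was lowest in both kinds of map. The next 50 kb, 75510001 to 75560000, had levels of 0.362 in InvF, 1.11 in DelB and 0.942 in WT. Further left the WT levels of the blocks lay between 0.241 and 0.684, without a steady course. The block of 0.241, 75110001 to 75160000, holds a bin of low coverage, and 74960001 to 75010000 was at 0.501. At the other end the first block, 74830001 to 74860000, had a level of 0.983 in InvF, 0.456 in DelB and 0.373 in WT. The 196 pairs moved apart by over 400 kb had levels of 0.344 in InvF, 1.59 in DelB, 1.60 in DelBs and 1.34 in WT in raw counts, and 0.255 in InvF, 1.12 in DelB, 1.20 in DelBs and 0.957 in WT in the balanced maps.

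**Figure D5:**
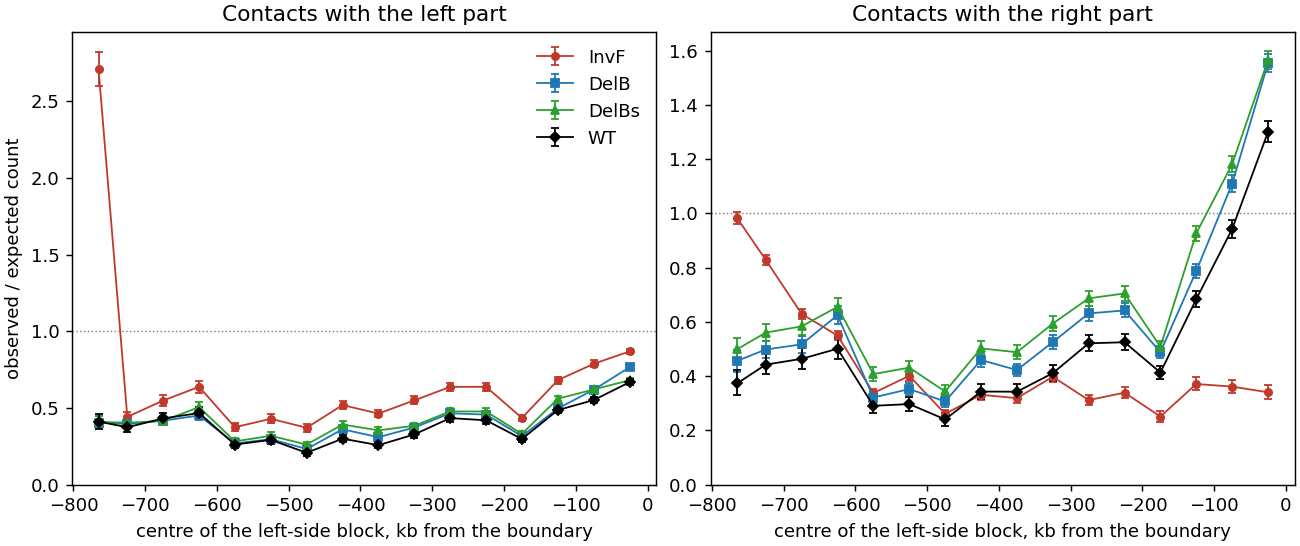
Observed over expected count of 50 kb blocks of the left side (the leftmost block is 30 kb) with the left part and with the right part, against the distance of the block's centre from the boundary in kb, in InvF, DelB, DelBs and WT; bars are 95% counting intervals. With the right part, DelB, DelBs and WT are highest next to the boundary and InvF is highest at the far end; with the left part, InvF lies above the other 3 along the side, and its single high point at the far left holds a breakpoint bin.

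The shape of these profiles can be given as a description over the 78 left-side bins, which share a library and are not independent. The Spearman correlation with the WT profile of right-part contacts was 0.33 in InvF (Pearson 0.0097), 0.95 in DelB (Pearson 0.99) and 0.96 in DelBs (Pearson 0.98). For left-part contacts it was 0.90 in InvF, 0.93 in DelB and 0.92 in DelBs (Pearson 0.28 in InvF, 0.95 in DelB and 0.93 in DelBs). The 78 bins include the first left-side bin, which holds a breakpoint. Its left-part level was 7.03 in InvF against 0.472 in WT, and the correlations were not computed without it. By rank, the InvF profile was closer to WT for the left part, which travelled with the left side, than for the right part.

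Pairs at short distance across the new junction of InvF did not reach the expected level. Right-part pairs in InvF had levels of 0.841 at 20 to 50 kb, 0.656 at 50 to 100 kb, 0.649 at 100 to 200 kb and 0.603 at 200 to 400 kb, then 0.461 at 400 to 800 kb and 0.341 at 800 kb and over. At 400 to 800 kb this was below the levels of 0.861 in DelB, 0.932 in DelBs and 0.736 in WT, which are for other pairs at the same distances. The classes of 20 to 50 kb and 50 to 100 kb had 1669 and 2329 counts in InvF. At the same distances left-part pairs, which have the boundary between them, were at 0.960 and 0.853 in InvF. By the log2 strength used above, right-part pairs in InvF had 0.54, 0.99, 1.02 and 0.99 in the 4 classes up to 400 kb. In all of these classes up to 400 kb, the level across the junction was below that across the turned boundary in InvF. Across the turned boundary the values at 100 to 200 and 200 to 400 kb were 0.693 and 0.678. The right-part classes keep the first left-side bin, which holds a breakpoint. Its 48 right-part pairs had 2501 counts in InvF, at a level of 0.926. Over all distances the right-part level in InvF was 0.519 with these pairs and 0.504 without them. The right-part classes were not computed without this bin.

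Single blocks and pairs of the right part, given in raw counts, show both changes. The highest WT level joined 75560001 to 75610000 with 76250001 to 76300000, with 69 counts in InvF, 737 in DelB, 829 in DelBs and 456 in WT. Its levels were 0.362 in InvF, 1.90 in DelB, 2.08 in DelBs and 1.79 in WT, and the ratio of InvF to WT was 0.122 (0.0931 to 0.157). The lowest ratio in InvF was 0.114, between 75560001 to 75610000 and 75950001 to 76000000, with 77 counts in InvF and 545 in WT. The highest ratio in InvF was 50.1 (35.2 to 74.0), between 74830001 to 74860000 and 75900001 to 75950000, with 1933 counts in InvF, 45 in DelB, 55 in DelBs and 31 in WT. Over all 160 right-part blocks the interval of the ratio was above 1 in 89 and below 1 in 59 in InvF, above 1 in 67 and below in 0 in DelB, and above 1 in 120 and below in 0 in DelBs. A WT level with its interval above 1 was found in 11 of the 160 right-part blocks and in 0 of the 96 left-part blocks. Blocks elsewhere on the map were not counted, so the block counts of both parts are descriptions.

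The 5 single pairs with the highest WT levels all had the last bin before the boundary, 75600001 to 75610000, as their left bin. With the bin from 76380001 to 76390000, 780 kb away, this bin had 4 counts in InvF, 39 in DelB, 40 in DelBs and 29 in WT, where 9.00 were expected in WT. With 76190001 to 76200000 it had 1 count in InvF, 69 in DelB, 47 in DelBs and 34 in WT. Over all partners it was also the left-side bin of the highest WT level, at 0.913 in InvF, 1.31 in DelB, 1.08 in DelBs and 1.10 in WT. On the right side the bins with the highest WT level were 76210001 to 76220000, 76190001 to 76200000 and 76360001 to 76370000, at 0.912, 0.894 and 0.853.

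The deletions leave every pair of the set in place and ask whether contacts across the boundary change when a long stretch beyond 76390000 is removed, which by the published description includes Epha4. Contacts were more frequent than in WT in both, with a ratio of 1.18 in DelB (1.17 to 1.20) and 1.24 in DelBs (1.22 to 1.25) for the whole set. The excess was larger in the right part, which adjoins the deletions, at 1.26 in DelB (1.24 to 1.28) and 1.37 in DelBs (1.35 to 1.39), than in the left part, at 1.10 in DelB (1.08 to 1.12) and 1.11 in DelBs (1.09 to 1.13). Along the right side, contacts of the block 75660001 to 75710000 with the left side were at 1.03 times WT in DelB and 1.05 times in DelBs. For the last block before the deletions, 76350001 to 76390000, the ratio was 1.42 in DelB and 1.62 in DelBs. Contacts within the right part that do not cross the boundary were at 1.15 times WT in DelB and 1.14 times in DelBs, and bins of the right part had 1.45 times their WT counts in DelB and 1.28 times in DelBs over the map outside the DelB deletion. The part of this coverage in the ratios was not tested.

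At short distance the deletions differed in direction from each other, by values that depend on the scaling. Left-part pairs 20 to 50 kb apart were at 1.12 times WT in DelB (1.04 to 1.20) and 0.912 times in DelBs (0.847 to 0.981), and the balanced maps gave 1.08 in DelB and 1.04 in DelBs. At 400 to 800 kb left-part pairs were at 1.13 times WT in DelB and 1.23 times in DelBs. The deletions can be set against each other directly. The ratio of DelBs to DelB was 1.01 for the left part, with an interval of 0.992 to 1.02 that includes 1, and 1.09 for the right part (1.07 to 1.10).

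Single pairs were called when they differed at least 2-fold from WT after scaling, among pairs with at least 30 counts in both libraries together. Over the map, 4.38% of such pairs were higher and 4.43% lower in InvF, 8.75% higher and 0.56% lower in DelB, and 7.28% higher and 0.684% lower in DelBs. In InvF 512 of the 2261 left-part pairs had enough counts, of which 101 were higher and 1 was lower, and 71 were higher without the breakpoint bins. Of the right-part pairs 383 of 3821 had enough counts in InvF, of which 330 were higher and 52 lower. In DelB 13 of 415 left-part pairs were higher and 4 lower, with 20 higher and 3 lower among 407 right-part pairs. In DelBs 27 of 465 were higher and 3 lower in the left part, and 63 of 475 were higher and 0 lower in the right part. The higher pairs make up 19.7% of the left-part pairs with enough counts in InvF, 3.13% in DelB and 5.81% in DelBs, and 86.2% of those of the right part in InvF, 4.91% in DelB and 13.3% in DelBs. Both DelB shares and the left-part share of DelBs are below that of the map. A pair with few counts in WT passes the count minimum through its high level in the mutant, so these counts describe the pairs and are no support for a direction.

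The authors' deposited table of differences between InvF and WT holds values for the same pairs, with most set to 0. Over that whole table, 3482 of 179101 values were above 0 and 3994 were below 0. In the left part the authors' deposited table had 24 values above 0, of which 19 were pairs with a breakpoint bin, and 0 below 0, among 2261. In the right part the authors' deposited table had 336 of 3822 values above 0, with 335 of them in the first 150 kb of the left side. It had 122 below 0, all 122 in the last 150 kb before the boundary. For DelB the authors' deposited table had 0 values other than 0 among these pairs, and for DelBs it had 1, above 0 and in the right part. Over the whole tables of 179101 values, 2583 were above 0 and 10 below in DelB. In DelBs 2543 were above 0 and 23 below.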

How the data were processed

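In the deposited raw maps each pair of 10 kb bins has a whole-number count of read pairs. Reads were mapped with Bowtie2 2.2.6 to mm9, per the submitters' processing notes and the file names give a mapping quality of 30. The deposited balanced maps hold a signal made by the authors with KR balancing, per the file names. The deposited difference maps hold a score whose formula the sources used here do not give. They also do not state removal of PCR duplicates, and intervals treat counts as independent.

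Python 3.11.15 with scipy 1.17.1, numpy 2.4.6 and, for drawing, matplotlib 3.10.9 was used to compute: allele distances from the inversion and the deletions located in the maps; scaling on untouched same-side pairs 20 kb to 2 Mb apart; expected counts from the same library; exact Poisson intervals for observed over expected and exact conditional binomial intervals for ratios, at the 95% level. The inversion ends had the highest junction score of all ends within 100 kb to each side. Functions were tested on simulated data. The members, the edges and all lists were chosen with earlier results of these data known. Named blocks were, per part, the 3 of highest and 3 of lowest WT observed over expected value (at least 50 expected counts) and of InvF to WT ratio (at least 50 counts), and the highest and lowest for each deletion; not all are printed. Leaving out the 2 breakpoint bins was chosen after the values were seen. Alternatives were other scaling, balanced values, a local expected level, other minimum distances and counts, and fewer bins. No sequence is printed, since an mm9 genome was not used here.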

Additional observations from a re-analysis of the deposited data

Results flagged for a closer look

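Right-part pairs that the inversion moved apart changed in opposite directions in the mutants. Their scaled contacts were 0.280 times WT in InvF, 1.23 times in DelB and 1.31 times in DelBs. The difference between the mutants was not tested, since each genotype had 1 library. These pairs lie further apart on the InvF allele and at their WT distance in both deletions, so the ratios set pairs at different distances side by side. Relative to the expected count at the distance on each allele, they were at 0.330 in InvF, 0.967 in DelB, 1.03 in DelBs and 0.818 in WT. In the balanced maps these levels were 0.241 in InvF, 0.686 in DelB, 0.752 in DelBs and 0.575 in WT.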

How the results depend on the processing

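Of 38 alternative values for 10 results, 0 changed direction. Among 31 alternatives for levels and ratios, 6 stayed within the counting interval and 25 moved beyond it. The other 7 concern counts of pairs, which have no interval. The 10 results leave out some comparisons above that did depend on the setting. Left-part pairs 20 to 50 kb apart in DelBs were at 0.912 times WT in raw counts and 1.04 times in the balanced maps. Set against contacts within the left part, crossing contacts up to 280 kb apart were at 0.396 in InvF and 0.399 in WT. Balanced values gave observed over expected levels of 0.379 for crossing pairs in WT, 0.561 for left-part and 0.397 for right-part pairs in InvF, and ratios to WT of 1.66 (InvF, left part), 1.71 (InvF, right part) and 1.30 (DelBs). A minimum distance of 50 kb gave levels of 0.494 in WT, 0.653 and 0.510 in InvF (left and right part), and a right-part InvF ratio of 1.60. A local expected level gave 0.582 and 0.526 in InvF (left and right part). Without the bins next to the breakpoints and the boundary, the levels were 0.470 in WT, 0.580 and 0.498 in InvF, and the ratios 1.45 and 1.63 in InvF and 1.27 in DelBs. Without the 2 breakpoint bins, chosen after seeing the data, the left-part level in InvF was 0.623 and the InvF ratios were 1.42 and 1.57. Scaling by total counts raised the ratios to 1.60 and 1.76 in InvF, 1.57 in DelB and 1.64 in DelBs. Left-part pairs at least 2-fold lower in InvF numbered 1, and 0 with total counts scaling, 0 with a minimum of 60 counts and 112 with no count filter. Left-part pairs at least 2-fold higher numbered 101, and 71 without the breakpoint bins. Right-part pairs at least 2-fold higher numbered 330, and 330 with total counts scaling, 70 with a minimum of 60 counts and 1725 with no filter. The cause of these shifts was not tested beyond what each setting changes. No paired analysis was possible because each genotype had 1 library. Depth limits single pairs, with medians of 4 to 7 counts.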
